A study of Homo sapiens with 3 samples.

Results

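The subject is the long intergenic noncoding RNAs (lincRNAs) that were well expressed in RPE-1 cells, a telomerase-immortalised human retinal pigment epithelial line. A lincRNA is a transcript that carries no long reading frame and lies outside protein-coding genes. Members were chosen by their counts in these libraries, as all genes with the lincRNA biotype and at least 60 counts in each of 3 libraries. The small nucleolar RNA host genes named SNHG with a number were left out, and so were GAS5, ZFAS1, EPB41L4A-AS1 and DANCR. Of 233 lincRNAs that had the minimum, 226 remained, out of 7629 lincRNAs and 58735 genes in the table. All 3 libraries form 1 group. The cells carried GFP on centrin 2 to mark centrioles and PLK4, the kinase that starts centriole duplication, under doxycycline-responsive control through rtTA. They had received a scramble siRNA and PLK4 had not been induced. The study concerns PLK4 overexpression, but no induced sample was analysed here, so there is no comparison between conditions. The labels do not state whether separate cultures were used. Each p-value below therefore compares these 3 libraries alone, and the spread it tests may be technical.

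Long noncoding RNAs work in several ways. Some build nuclear bodies, as NEAT1 does for paraspeckles. Others coat a chromosome, as XIST does on the inactive X, or bind proteins in the cytoplasm, as NORAD binds PUM2. Many are the primary transcripts from which microRNAs are cut, and many start back to back with a protein-coding gene.

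The libraries held 49279692, 60040029 and 46625774 counts for libraries 1, 2 and 3. Library 1 stood apart, and no label sets it apart from the others. Among 12337 genes of every type with at least 60 counts in each library, 6193 (50.2%) differed between libraries and had library 1 farthest from the other libraries. Among the marker genes, OTX2, a transcription factor of pigment epithelium, had a mean of 5.47 RPKM (counts scaled to library size and divided by exon length in kb), while TYR and DCT, the pigment enzymes, had 0 counts in all 3 libraries. RPE65, a defining gene of mature pigment epithelium, had 8, 6 and 0 counts. The mesenchymal filament gene VIM reached 1518 RPKM. HBB, CD3E and RBFOX3, which mark blood and neurons, had 0 counts, but SNAP25, another neuronal marker, had 365, 410 and 317 counts, or a mean of 2.09 RPKM. Some markers moved with library 1. The keratin gene KRT8 was lowest there, at 529, 687 and 686 CPM (counts scaled to library size), and PTPRC, a leukocyte gene, was highest there at 2.95, 1.53 and 1.71 CPM. Of 8 pigment epithelium markers 3 had enough counts for the test between libraries described below and 2 passed it. Of 5 markers of cultured epithelial or mesenchymal cells 4 were tested and 4 passed, and of 6 markers of other cells 2 were tested and 1 passed, beside 68.6% of all genes tested. Their part in the results was not tested.

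Most members were scarce. Their mean level had a median of 1.45 RPKM and ran between 0.159 and 74.6 RPKM, whereas protein-coding genes with the same count minimum had a median of 6.26 RPKM. The mean was under 1 RPKM for 72 members, between 1 and 5 RPKM for 117, between 5 and 10 RPKM for 23, and at or above 10 RPKM for 14. All 226 members held 0.276 ± 0.0296% of all counts (SD, n = 3), with 0.310% in library 1, 0.262% in library 2 and 0.255% in library 3. The 5 most abundant, MEG3, NORAD, XIST, MALAT1 and NEAT1, made up 49.7% of the members' summed CPM. These levels chose the members, so they are a description and no test was made of them.

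**Figure D1:**
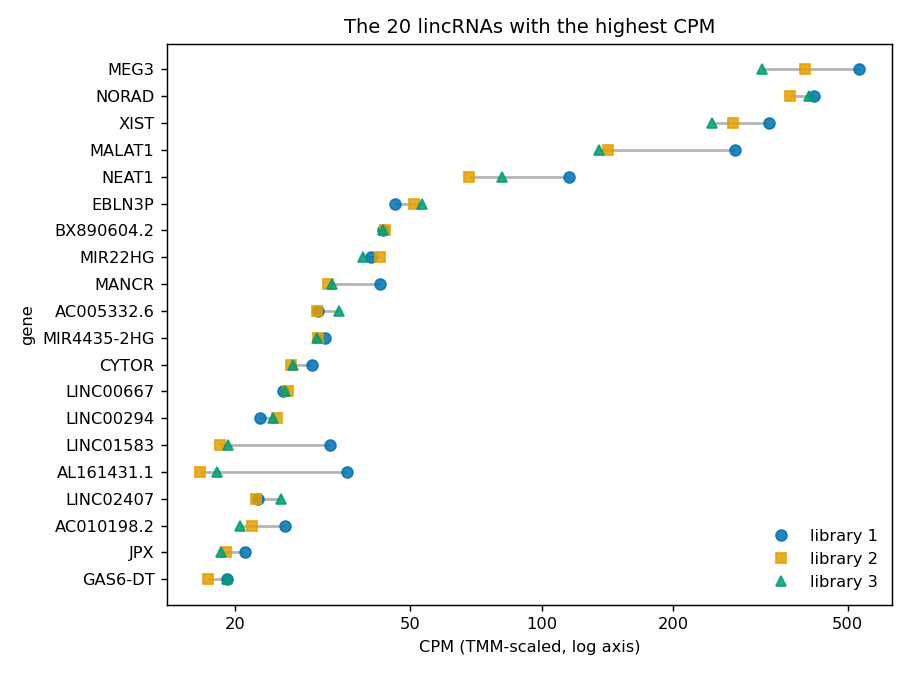
CPM of the 20 most abundant lincRNAs in each of 3 libraries on a log axis, with 1 symbol per library and a grey line over their range. MEG3 and NORAD have the highest means, 417 and 398 CPM, and MALAT1, NEAT1, LINC01583 and AL161431.1 have library 1 well to the right of the other libraries.

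Per length, NORAD was the highest member, at 78.4, 69.1 and 76.2 RPKM in libraries 1, 2 and 3. MALAT1 followed with a mean of 20.9 ± 9.07 RPKM (SD, n = 3), LINC02407 with 19.5 ± 1.43 RPKM, MANCR with 18.8 ± 2.97 RPKM, LINC01629 with 18.1 ± 2.76 RPKM and MEG3 with 17.9 ± 4.63 RPKM. From MALAT1 to MEG3 these means lay within the SDs of their neighbours in the order. LINC01638 had 15.0 ± 1.87 RPKM, MIR22HG 13.7 ± 0.618 RPKM, LINC02454 13.5 ± 1.15 RPKM and XIST 11.2 ± 1.71 RPKM. MANCR is known as an RNA linked to mitosis, and its 42.7, 32.6 and 33.2 CPM in libraries 1, 2 and 3 put library 1 above the others (adjusted p = 1.09e-19). This p, and those that follow, come from a chi-square test of each gene's counts against the scaled library sizes, with Benjamini-Hochberg adjustment over all genes tested. The order by CPM, which ignores length, shared 6 of these 10 names. EBLN3P, a transcript that holds a bornavirus-like nucleoprotein pseudogene, entered there with 46.3, 51.1 and 53.3 CPM.

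The RNAs of nuclear bodies and chromatin included the most abundant members. A list of 13 such RNAs held 7 members, namely NEAT1, MALAT1, XIST, JPX, FTX, MEG3 and MIAT. MALAT1, which resides in nuclear speckles, had 13442 counts in library 1, 8599 in library 2 and 6320 in library 3, or 277, 142 and 135 CPM. Libraries 2 and 3 lay close together and library 1 was 1.00 log2 units above their mean. Its log2 ratio of highest to lowest CPM was 1.04, and without library 1 it was 0.07, still past the threshold (chi-square adjusted p = 0.0210). NEAT1, the scaffold of paraspeckles and a neighbour of MALAT1 on chromosome 11, had 115, 68.3 and 81.1 CPM, so that library 1 was again the highest (chi-square adjusted p = 4.85e-153). The libraries were poly(A)-selected and counted per gene. Forms of MALAT1 or NEAT1 without a poly(A) tail may be missed, and forms were not told apart. MEG3, an imprinted RNA expressed from the maternal chromosome 14, had 532, 399 and 319 CPM. Its counts were 25831, 24227 and 14933, and its mean CPM over the 3 libraries was the highest of the members, although NORAD was above it in library 3.

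XIST, which silences the X chromosome it is made from, had 330, 273 and 245 CPM (chi-square adjusted p = 8.26e-138). FTX and JPX are transcribed near XIST and are known to act on its expression. FTX had 20.8, 14.8 and 16.7 CPM (chi-square adjusted p = 2.80e-12) and JPX had 21.1, 19.01 and 18.5 CPM (chi-square adjusted p = 0.0178). MIAT, first studied in heart and nervous tissue, had 5.19, 4.56 and 4.51 CPM and did not pass the test (chi-square adjusted p = 0.263). In all, 6 of these 7 members differed between libraries, and all 6 were highest in library 1. The shares called were 68.6% of all 16293 genes tested and 76.3% of those with the minimum. Called and highest in library 1 were 27.9% and 29.7%. Without library 1, 4 of these 7 members passed, beside 28.5% of all genes tested without it and 34.3% of those with the minimum. FTX (chi-square adjusted p = 0.0565) and JPX (chi-square adjusted p = 0.726) then did not pass. The strand setting of the counting is not given in the sources used here. JPX shares 78.0% of its exon length with exons on the other strand, FTX 44.3% and XIST 30.02%. Whether reads of these genes and of their antisense partners were told apart is therefore unknown, and their values are uncertain. Of the other 6 RNAs on the list, HOTAIR and HOTTIP had 0 counts, and TUG1, at 149, 135 and 135 CPM, carries another biotype.

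The messenger RNAs of the proteins that NEAT1 assembles with were counted in the same libraries. Of 12 rows for paraspeckle proteins, 11 passed the test and 8 of these were highest in library 1. Of all genes tested, 68.6% passed and 27.9% passed and were highest there. Among genes with the minimum these shares were 76.3% and 29.7%. All rows but those of MATR3 had mean counts above 1000, a range in which 85.8% of genes with the minimum passed. Without library 1, 4 passed, beside 28.5% of all genes tested without it and 34.3% of those with the minimum. SFPQ, an essential paraspeckle protein, had 415, 275 and 276 CPM and PSPC1 had 107, 77.0 and 81.2 CPM, both with library 1 on top as for NEAT1. HNRNPK had 590, 584 and 601 CPM, with library 3 the highest. MATR3 is annotated as a pair of overlapping genes, and its values are uncertain.

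NORAD is known to hold the RNA-binding protein PUM2 away from messenger RNAs, through repeated copies of a short element. Its locus is chr20:36045622-36050960 on the minus strand (hg38), where GENCODE 29 annotates a single exon of 5339 bases. A search of this strand of the transcript for TGTANATA found 15 elements, or 2.81 per kb, which ranked 1 of the 226 members. FTX had 7 elements and NEAT1 had 6, while 189 members (83.6%) had none, beside 65.4% of the other genes with the count minimum. At least 5 elements were found in 3 members (1.33%) and in 0.842% of the other genes, with no test made of this difference. The longest annotated transcript of each gene was searched, and these shares were not matched for length. Summed exon length had a median of 2649.5 bases over the members and 5123 bases over all genes with the minimum. The NORAD elements lay between bases 761 and 4606 of its transcript. The windows below, from the GENCODE 29 transcript, show the element in capitals with 8 bases on each side, because the capitals are what PUM2 is known to bind. The first comes from bases 761 to 768, the next from 1442 to 1449, then 2466 to 2473, then 3275 to 3282.
NORAD element at 761: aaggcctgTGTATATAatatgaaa
NORAD element at 1442: cttatctgTGTATATAgtgtacat
NORAD element at 2466: taacacttTGTAAATAgcttttaa
NORAD element at 3275: ctgtgctgTGTATATAgtgtatat

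NORAD had 20305, 22414 and 19045 counts, or 418, 369 and 407 CPM, so that libraries 1 and 3 were close and library 2 lowest. With so many counts this narrow spread still exceeded counting error (chi-square adjusted p = 2.38e-40, ratio of highest to lowest CPM 1.13). PUM2 averaged 12.5 ± 0.416 RPKM (SD, n = 3), while RBMX, another NORAD-binding protein, averaged 37.1 ± 0.878 RPKM. The level of NORAD per length was thus above that of both of these protein partners in every library.

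Other members of the list of cytoplasmic and p53-linked RNAs were CYTOR, TP53TG1 and PURPL. With NORAD, 3 of these 4 members passed the test, beside 68.6% of all genes tested and 76.3% of those with the minimum. Without library 1 NORAD alone passed, beside 28.5% of all genes tested and 34.3% of those with the minimum. CYTOR, a cytoplasmic RNA raised in many tumours, had 29.9, 26.8 and 27.0 CPM (chi-square adjusted p = 0.00758). MIR4435-2HG, with 31.95, 30.9 and 30.7 CPM, is a near-identical copy elsewhere on chromosome 2, and the split of reads between these copies is uncertain. PURPL, a p53-induced RNA that lowers p53, had 4.10, 2.502 and 3.10 CPM (chi-square adjusted p = 4.62e-05). TP53TG1, a p53 target, had 7.21, 8.41 and 8.38 CPM and did not pass the test (chi-square adjusted p = 0.0743). It shares 32.6% of its exon length with the other strand.

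Of 16 growth- and cancer-associated RNAs listed, 4 were members. Of these 4 members, 3 passed the test, beside 68.6% of all genes tested and 76.3% of those with the minimum. Without library 1 only CRNDE of these 4 passed, beside 28.5% of all genes tested and 34.3% of those with the minimum. PVT1, which lies beside MYC, had 14.01, 11.1 and 11.2 CPM and was highest in library 1 (chi-square adjusted p = 2.69e-05). CRNDE, an RNA raised in colorectal tumours, had 6.30, 7.33 and 9.11 CPM and was lowest in library 1 (chi-square adjusted p = 8.38e-06). CASC15 had 3.50, 4.91 and 4.92 CPM and was also lowest there (chi-square adjusted p = 0.00122). LINC00467 had 7.17, 6.21 and 6.37 CPM (chi-square adjusted p = 0.158). The RNA component of telomerase, TERC, is no member and had 0, 5 and 0 counts in these poly(A)-selected libraries.

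A set of members spans microRNA genes. MicroRNAs are short RNAs cut from hairpins in longer transcripts by DROSHA and DGCR8, and the seed, bases 2 to 8, guides them to their targets. By position, 17 members (7.52%) hold 45 RefSeq hairpins on their own strand, of which 44 are distinct. No RefSeq hairpin was matched for MIR22HG, MIR155HG or MIR4458HG, so these hosts are not among the 17. The shares counted in the same way were 0.996% of all lincRNAs and 5.17% of the genes with the count minimum. Of the 45 hairpins, 11 lie within an annotated exon of the host and 34 outside every exon. The spans of the hosts were long, with a median of 81622 bases, beside 9359 bases for all members. The mature sequences below are from RefSeq (GRCh38.p14), with the seed in capitals. They are shown because their families are well known and because 7 seeds occur in more than a single microRNA of the set. Host names are given in brackets.
hsa-let-7a-5p (MIRLET7BHG): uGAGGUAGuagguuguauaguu
hsa-let-7b-5p (MIRLET7BHG): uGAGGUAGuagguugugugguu
hsa-let-7i-5p (AC048341.1): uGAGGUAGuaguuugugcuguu
hsa-miR-221-3p (MIR222HG): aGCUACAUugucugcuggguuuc
hsa-miR-222-3p (MIR222HG): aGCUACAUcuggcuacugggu
hsa-miR-29a-3p (AC016831.7): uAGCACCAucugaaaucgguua
hsa-miR-29b-3p (AC016831.7 and AC016831.1): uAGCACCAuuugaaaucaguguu
hsa-miR-30a-5p (LINC00472): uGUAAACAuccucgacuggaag
hsa-miR-30c-5p (LINC00472): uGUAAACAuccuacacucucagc
hsa-miR-34a-5p (MIR34AHG): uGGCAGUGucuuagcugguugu
hsa-miR-143-3p (CARMN): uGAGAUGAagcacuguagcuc
hsa-miR-145-5p (CARMN): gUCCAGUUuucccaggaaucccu

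The let-7 family, known to restrain growth genes, shares its seed across 2 hosts on different chromosomes. MIRLET7BHG on chromosome 22 had 7.07, 5.76 and 5.66 CPM, with library 1 the highest (chi-square adjusted p = 0.0117). AC048341.1 on chromosome 12, which holds let-7i, had 12.2, 11.2 and 9.64 CPM (chi-square adjusted p = 0.00153). MIR222HG, from which miR-221 and miR-222 come, had 20.4, 14.1 and 15.5 CPM (chi-square adjusted p = 1.27e-14). MIR34AHG, the host of the p53-induced miR-34a, had 14.3, 10.6 and 8.74 CPM (chi-square adjusted p = 6.19e-15). In both of these, library 1 was the highest.

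CARMN, the host of the smooth muscle microRNAs miR-143 and miR-145, had 7.52, 7.84 and 5.28 CPM (chi-square adjusted p = 2.67e-06). It differed from the hosts above in that library 2 was highest. Library 3 was lowest, as in MIRLET7BHG, AC048341.1 and MIR34AHG. LINC00472, which spans miR-30a and miR-30c, had 7.42, 5.00 and 5.47 CPM (chi-square adjusted p = 1.78e-06). AC016831.1, which was highest in library 1 at 4.47, 1.79 and 2.59 CPM, and AC016831.7 share 31.6% and 35.8% of their exon lengths with other genes on the same strand, so their counts depend on how shared reads were assigned. MIR22HG, the highest member with a host name at 40.8, 42.8 and 39.1 CPM, varied little (ratio of highest to lowest CPM 1.09, chi-square adjusted p = 0.0188).

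Among the 17 matched hosts, 14 passed the test and 10 of these were highest in library 1, beside 68.6% and 27.9% of all genes tested. Among genes with the minimum these shares were 76.3% and 29.7%. Without library 1, 7 of the 17 passed, beside 28.5% of all genes tested and 34.3% of those with the minimum. Of 64 listed genes, which were H19 and those with a microRNA host name, 8 were members. Of these 8, 4 passed the test, or 2 without library 1, beside the same 68.6% and 28.5%. Among genes with the minimum the shares were 76.3% and 34.3%. MIR155HG had 115, 114 and 101 counts, MIR137HG 95, 110 and 104 counts, and MIR4458HG 159, 173 and 137 counts, and none of these 3 passed. DROSHA averaged 11.8 ± 1.514 RPKM and DGCR8 6.11 ± 0.162 RPKM (SD, n = 3 each). No mature microRNA was measured, so the values are those of the host transcripts only.

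**Figure D2:**
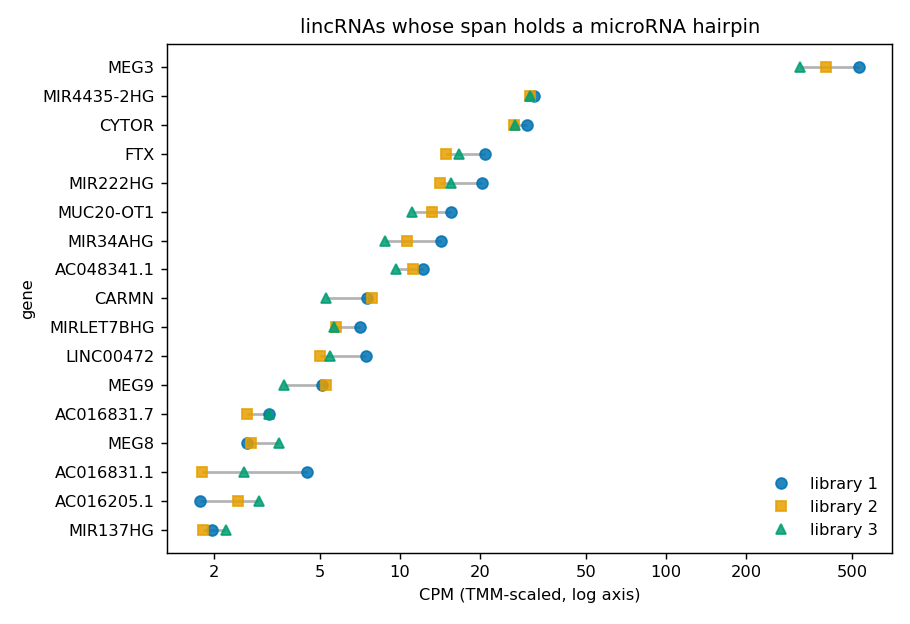
CPM on a log axis of the 17 lincRNAs whose span holds a microRNA hairpin on the same strand, in each of 3 libraries, with a grey line over their range. MEG3 is far above the rest at 319 to 532 CPM, and library 1 is the rightmost symbol for hosts such as MIR222HG, MIR34AHG and FTX.

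Differences between the libraries were common among the members. The chi-square test of each gene's 3 counts against the scaled library sizes called 127 of 226 members (56.2%) at an adjusted p under 0.05, beside 68.6% of all 16293 genes tested and 76.3% of the genes with the same minimum. Power grows with counts, and the members' mean counts had a median of 189.7, against 1550 for all genes with the minimum. Among genes with a mean count from 60 to under 200, 49.1% of members and 48.1% of all genes were called. From 200 to under 1000 counts the shares were 60.4% and 66.0%, and from 1000 counts they were 78.9% and 85.8%. When each count was allowed a further coefficient of variation of 0.05, the test called 81 members (35.8%), beside 32.6% of all genes tested and 31.4% of those with the minimum. Without library 1 the test called 43 members (19%), beside 28.5% of all genes tested and 34.3% of those with the minimum, and 41 of these 43 were also called with all 3 libraries. Among the members named here that lost their call in that way were MANCR, EBLN3P, CYTOR, PURPL, PVT1, CASC15, MIR222HG, MIRLET7BHG, LINC00520, AL161431.1, AC093297.2, AC005332.4 and LINC01293.

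**Figure D3:**
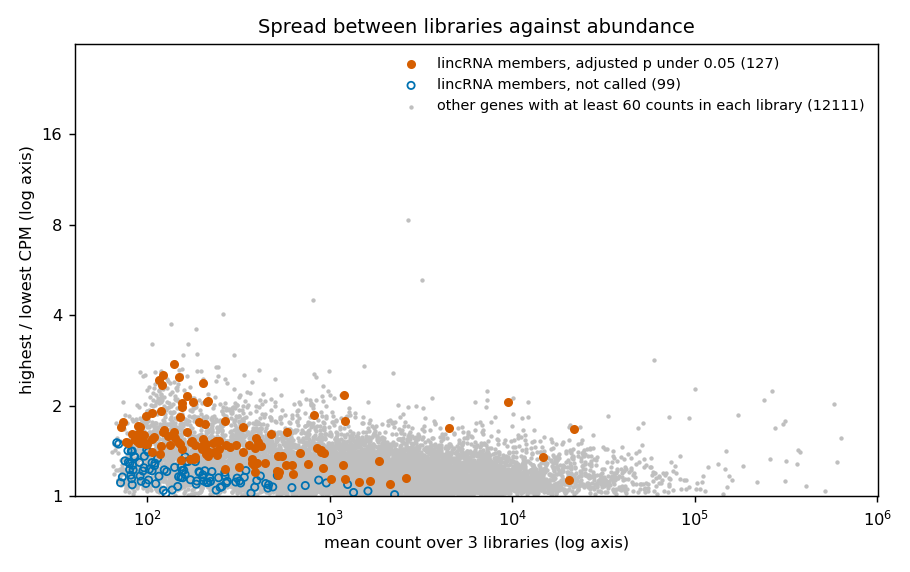
Ratio of the highest to the lowest CPM against the mean count, both on log axes, for the members called by the chi-square test (filled), those not called (open) and the other genes with at least 60 counts in each library (grey). Called members reach a ratio of 2.76, and members with low mean counts need a wider ratio to be called.

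The ratio of highest to lowest CPM had a median of 1.33 over the members and a median of 1.19 over all genes with the minimum. Within each count class used above, these medians lay closer together. From 60 to under 200 counts they were 1.39 for members and 1.36 for all genes, and from 200 to under 1000 counts 1.27 and 1.23. From 1000 counts they were 1.140 and 1.159, with the members lower. The ratio was at least 2 in 13 called members (5.75%), beside 9.95% of all genes tested and 1.33% of those with the minimum. These shares were not matched for counts. The widest was LINC00520, at 226, 119 and 79 counts in libraries 1, 2 and 3 (ratio 2.76, chi-square adjusted p = 3.72e-21). AL161431.1, at 1744, 1009 and 849 counts, was the most abundant of the widest after MALAT1 (ratio 2.16). AC016831.1, AC093297.2, AC018645.2, AC005332.4 and LINC01293 were likewise highest in library 1, with ratios between 2.06 and 2.49. The other direction occurred too. AL365356.5 had 65, 142 and 159 counts, LINC01515 had 108, 254 and 247 counts, and LINC01119 had 127, 264 and 254 counts, all lowest in library 1, with ratios of 2.54, 2.37 and 2.07.

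At the narrow end, BX890604.2 had 43.4, 43.9 and 43.6 CPM (ratio 1.01). AC015909.1 and LINC01089 each had a ratio of 1.02, and none of these 3 passed the test. LINC01089 shares 41.7% of its exon length with the same strand and 48.7% with the other strand.

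Library 1 was highest in 77 called members (34.1%) and lowest in 37 (16.4%). Among all genes tested, 27.9% were called and highest there and 33.4% were called and lowest there, and among those with the minimum the shares were 29.7% and 38.1%. Called or not, 138 members (61.1%) lay higher in library 1 than in the mean of the other libraries, beside 47.8% of all genes tested and 45.6% of those with the minimum. In the class of 60 to under 200 counts these shares were 58.6% of members and 54.1% of all genes, and in the class of 200 to under 1000 counts they were 63.7% and 47.5%. No test of the difference between members and other genes was made. In 85 called members (37.6%) library 1 was the farthest from the others, beside 45.4% of all genes tested and 50.2% of those with the minimum.

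**Figure D4:**
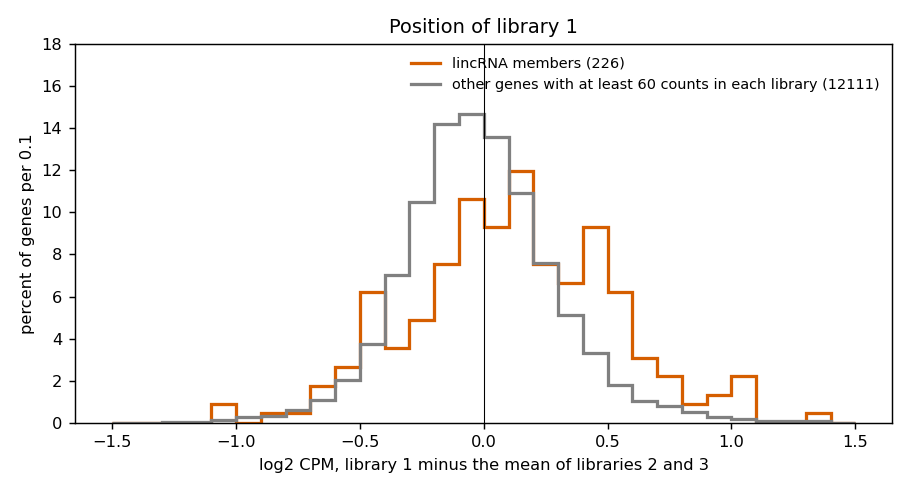
Percent of genes in bins of 0.1 of the difference in log2 CPM between library 1 and the mean of libraries 2 and 3, for the members and for the other genes with at least 60 counts in each library. The members' curve is shifted to the right, with a median of 0.11, whereas the median of all genes with the minimum is -0.03.

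Some members lay close together in the genome. Within 100 kb of each other lay 43 members in 19 loci, and 5 loci held at least 3. At the imprinted locus on chromosome 14, MEG3, MEG8 and MEG9 lie on the plus strand. MEG8 had 2.66, 2.75 and 3.51 CPM and MEG9 had 5.09, 5.28 and 3.68 CPM, far below MEG3. DLK1 and RTL1, the paternally expressed coding genes of that locus, had 0 counts in all 3 libraries. MEG8 and MEG9 hold 13 and 5 hairpins, so that with the 2 in MEG3 this locus has 20 of the 45.

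On chromosome 2, LINC01833, SIX3-AS1 and AC012354.1 lie around SIX3, a homeobox gene of forebrain and eye development. SIX3 itself had 28.5, 17.95 and 18.8 RPKM, while these members averaged 2.57 ± 0.256, 1.63 ± 0.321 and 1.96 ± 0.121 RPKM (SD, n = 3 each). LINC01291 and LINC01293 are neighbours elsewhere on that chromosome. LINC01291 had 4.57, 2.24 and 2.31 CPM and LINC01293 had 5.03, 2.44 and 3.08 CPM, so both were highest in library 1. The 3 members at AC005332 on chromosome 17 did not move alike. AC005332.4 was highest in library 1 at 232, 159 and 104 counts, and AC005332.5 was lowest there at 88, 180 and 101 counts. AC005332.6 had 1498, 1870 and 1614 counts, or 30.9, 30.8 and 34.5 CPM, so that library 3 was highest. It shares 48.4% of its exon length with the other strand.

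Many members start beside a protein-coding gene. For 51 members (22.6%) the annotated start lay within 1000 bases of a coding start on the other strand, beside 6.23% of the other 7403 lincRNAs and 18.4% of coding genes with the minimum. In 34 the starts were apart, facing away from each other, and in 17 the transcripts overlapped at their starts. Of 49 coding neighbours with the count minimum, 43 were higher per length than the lincRNA, with a median ratio of 3.72. The most abundant of these members, MIR22HG, was an exception, at 13.7 RPKM against 6.58 RPKM for WDR81, an endosomal protein gene whose transcript overlaps it. GAS6-DT averaged 9.50 ± 0.539 RPKM (SD, n = 3) and GAS6, the ligand of the TAM receptor kinases, 47.6 RPKM.

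The spread of the most abundant of these members can be set beside that of their neighbours. The neighbours are given as raw counts, which also follow library size, and library 2 was the largest. GAS6-DT had 19.1, 17.3 and 19.2 CPM, while GAS6 was lowest in library 1 at 11882 counts, with 19220 and 13829 in libraries 2 and 3. BAIAP2-DT was lowest in library 1 at 6.55 CPM, with 10.5 and 10.2 CPM in libraries 2 and 3, and BAIAP2, a regulator of actin, had 1944, 2381 and 1675 counts. LINC01184 had 20.1, 16.2 and 17.4 CPM beside SLC12A2, the sodium, potassium and chloride cotransporter, at 2174, 2690 and 2194 counts. MAPKAPK5-AS1 had 8.61, 8.92 and 8.10 CPM beside the kinase gene MAPKAPK5 at 1712, 2227 and 1712 counts. After scaling, library 1 minus the mean of libraries 2 and 3 was -0.32 log2 units for GAS6 and 0.10 for BAIAP2. It was -0.02 for SLC12A2 and -0.05 for MAPKAPK5, and neither of these passed the test (chi-square adjusted p = 0.150 and 0.473). In 17 pairs both genes passed the test, and in 9 of these both lay on the same side in library 1. No such count was made for other pairs of genes, and whether neighbours move together was not tested. Among members with such a neighbour 23 of 51 passed the test, and among the others 104 of 175. These counts stand beside 68.6% of all genes tested and 76.3% of those with the minimum. Without library 1, 4 of the 51 passed, beside 28.5% and 34.3%.

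**Figure D5:**
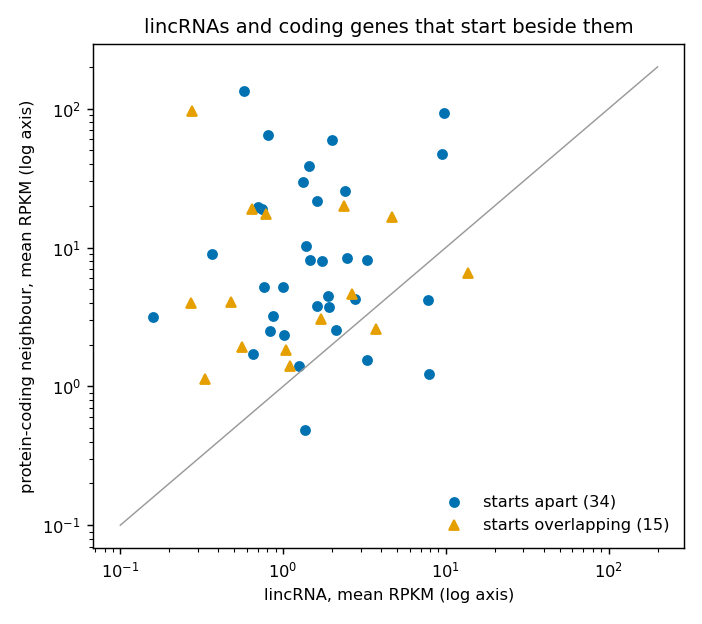
Mean RPKM of the protein-coding gene against that of the lincRNA that starts within 1000 bases of it on the other strand, on log axes, for 49 pairs whose coding gene had at least 60 counts in each library. The grey line marks equal levels, and 43 of the 49 points lie above it.

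Promoter windows of 300 bases, from 250 before the RefSeq start to 50 after it, were found for 122 members. The RefSeq start lay within 250 bases of the GENCODE start for 90 of them, and for the rest the window does not cover the start of the gene as counted. Of the 122, 63 (51.6%) were CpG-rich, with a GC share over 50% and an observed to expected CpG ratio over 0.6. The share was 46.8% of all other promoters, 24.0% of long noncoding RNA promoters and 63.2% of protein-coding promoters. Those comparison windows were not filtered for expression in these cells, whereas the members were. Among members with a coding start nearby 33 of 37 windows were CpG-rich, and among the rest 30 of 85. Motifs were searched on both strands, and none of the letter strings contains another. The GC box GGGCGG occurred in 47.5% of member windows and 44.6% of all other windows, and TATAAA in 8.20% and 12.0%. The ETS motif CCGGAAG occurred in 13.1% and 10.7%, and the E-box CACGTG in 9.02% and 7.43%. The AP-1 motif TGANTCA occurred in 15.6% of member windows, beside 7.73% of all other windows, 10.5% of long noncoding RNA windows and 5.75% of protein-coding windows. Of the 19 members with the AP-1 letters 14 were higher in library 1, and of the 103 without them 60 were, beside 47.8% of all genes tested. Called and highest in library 1 were 6 of the 19 and 32 of the 103, beside 27.9% of all genes tested. Over the 90 windows at matching starts, 53.3% were CpG-rich, 16.7% had the AP-1 letters and 4.44% had TATAAA. At these starts 10 of the 15 members with the AP-1 letters were higher in library 1, and so were 44 of the 75 without them. No test was made of this difference. Such a match describes the letters only and no binding was measured.

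The windows of 4 members show these types. They are from RefSeq, GRCh38.p14, written along the strand of the gene, with motifs in capitals. NORAD, the highest member per length, has an ETS and an E-box match at chr20:36050911-36051210 (minus strand). MALAT1 has 5 GC boxes at chr11:65497488-65497787 (plus strand). MANCR, whose window is poor in CpG, has 2 AP-1 matches at chr10:4678021-4678320 (minus strand). GAS6-DT, which starts back to back with GAS6, has 4 GC boxes at chr13:113863927-113864226 (plus strand). GC boxes on the other strand read CCGCCC and the ETS motif there reads CTTCCGG.
NORAD promoter: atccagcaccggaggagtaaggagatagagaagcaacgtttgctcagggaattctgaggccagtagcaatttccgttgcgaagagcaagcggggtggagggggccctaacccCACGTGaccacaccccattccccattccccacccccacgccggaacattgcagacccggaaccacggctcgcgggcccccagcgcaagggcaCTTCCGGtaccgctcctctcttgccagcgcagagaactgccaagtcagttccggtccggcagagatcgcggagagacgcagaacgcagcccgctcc
MALAT1 promoter: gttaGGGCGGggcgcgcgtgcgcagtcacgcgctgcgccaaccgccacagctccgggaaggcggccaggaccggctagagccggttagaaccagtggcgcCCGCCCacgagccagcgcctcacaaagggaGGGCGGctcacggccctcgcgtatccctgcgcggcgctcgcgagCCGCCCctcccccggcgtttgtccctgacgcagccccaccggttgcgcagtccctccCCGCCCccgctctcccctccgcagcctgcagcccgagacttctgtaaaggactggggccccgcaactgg
MANCR promoter: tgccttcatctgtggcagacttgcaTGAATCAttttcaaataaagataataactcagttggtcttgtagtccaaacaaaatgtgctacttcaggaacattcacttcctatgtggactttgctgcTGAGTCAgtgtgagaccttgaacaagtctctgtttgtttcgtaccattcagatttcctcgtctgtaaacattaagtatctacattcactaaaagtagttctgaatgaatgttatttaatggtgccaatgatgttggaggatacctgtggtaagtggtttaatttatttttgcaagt
GAS6-DT promoter: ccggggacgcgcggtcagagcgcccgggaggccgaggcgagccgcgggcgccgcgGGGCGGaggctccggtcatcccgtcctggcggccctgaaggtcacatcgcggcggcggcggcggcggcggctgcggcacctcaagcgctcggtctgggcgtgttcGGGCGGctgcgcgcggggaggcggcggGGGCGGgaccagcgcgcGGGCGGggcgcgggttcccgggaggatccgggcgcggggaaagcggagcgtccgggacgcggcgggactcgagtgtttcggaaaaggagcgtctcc

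The count minimum itself left close cases. Just inside it, with a lowest count of 60, were AL035071.1 at 100, 88 and 60 counts, AL121718.1 at 60, 121 and 88 counts, and LINC02001 at 69, 86 and 60 counts. Just outside, with a lowest count of 59, were AL139384.2 at 82, 84 and 59 counts, AP002381.2 at 91, 59 and 61 counts, and LINC00513 at 59, 99 and 82 counts. The members' summed exon length had a median of 2649.5 bases and a range of 331 to 28487 bases, against a median of 744 bases for the other 7403 lincRNAs. The longest was FTX. A single exon was annotated for 49 members (21.7%), among them NORAD, and for 15.7% of the other lincRNAs. A long gene reaches a count minimum at a lower level per length, so the rule depends on length.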

How the data were processed

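Poly(A) RNA of 3 libraries was analysed. The deposited file holds raw counts of reads per gene. Per the submitters' processing notes, the tools were STAR 2.5.2a, featureCounts 1.6.2 and cutadapt 1.16, with hg38 as the build. Their settings, the strand mode and the annotation were not given in the sources used here. Every one of the 58735 gene IDs matched GENCODE 29, which gave positions and exon lengths. The table also holds 6 columns that match no sample given, and they were not used. CPM used TMM-scaled totals (edgeR 4.0.16, R 4.3.3), and RPKM divides CPM by the length of the union of exons.

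With 1 group, the only test was a chi-square test of each gene's 3 counts against the scaled totals with 2 degrees of freedom. It covered 16293 genes whose mean count reached 10, Benjamini-Hochberg adjusted, at a threshold of 0.05. It sets the spread against counting error. It was tested on simulated counts drawn from the model it assumes, so that run does not show how it behaves on real spread between libraries. Members, lists and the rule for named genes (highest RPKM and CPM, functional lists, widest and narrowest ratios, threshold cases, abundant members beside coding starts) were chosen with earlier results of these data known. CARMN, LINC00472, AC048341.1, LINC01583 and the members at shared loci were named after their values were seen. Alternatives were DESeq2 1.42.0 size factors, raw totals, other count minimums, other gene filters, other distances and leaving out each library. A listed protein-coding gene is not reported here.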

Additional observations from a re-analysis of the deposited data

How the results depend on the processing

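The number of called members (127) ranged from 43 to 107 when a library was left out, and the number called with the extra coefficient of variation (81) from 2 to 74. Members with a ratio of at least 2 (13) ranged from 0 to 7, and the common biological coefficient of variation (0.135) from 0.0601 to 0.171. The lowest of each came without library 1, which leaves 43, 2, 0 and 0.0601. Of 43 named members, 17 lost their call without library 1, 1 without library 2 and 6 without library 3. A minimum of 30 counts gave 341 members, 33 of them with a ratio of at least 2. A minimum of 120 counts gave 142 members, of which 83 were called, 5 had a ratio of at least 2 and 52 had library 1 farthest. Without division by length, 6 of the 10 highest members stayed. DESeq2 size factors, raw totals and the gene filters gave between 115 and 132 called members. Raw totals moved the median of library 1 over genes with the minimum to -0.06, against -0.03 with TMM, and 130 rather than 138 members were then higher in library 1. This setting, the counts of listed genes without library 1, and the promoter shares at matching starts, were chosen after seeing the data. With 2 libraries the farthest library has no value. No paired analysis was possible because there is only 1 group. A median of 189.7 counts per member limits what spread could be seen.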
